A study of Mus musculus with 8 samples.

Results

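Chemokines are small secreted proteins, and chemokine receptors are the G protein-coupled receptors through which they direct the movement of white blood cells. A list of 38 mouse genes of this system, 25 ligands and 13 receptors, was read from arrays of spleen cells. Members were all probe sets that the platform annotation pairs with exactly 1 listed symbol, which gave 62 probe sets for 37 genes (24 ligands and 13 receptors) of 18193 genes so named on the array. Ccl19 has only a probe set shared with several other symbols and is not measured here.

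The 8 arrays came from males aged 8 weeks. The 4 wild-type samples were C57Bl/6J spleens, 1 per array, and the 4 Yaa samples were from B6.SB-Yaa/J, the same background carrying the Yaa mutation on the Y chromosome. Yaa 3 pooled 2 spleens, and one label of Yaa 2 also speaks of males in the plural. The spleen was dissociated and its red cells lysed, so RNA of all remaining cell types was read together, and fewer cells of a type and less RNA per cell cannot be told apart. Yaa is known as a copy of a distal X segment on the Y chromosome that includes Tlr7, and Tlr7 had a mean log2 signal of 8.005 ± 0.38 (SD, n = 4) in the Yaa arrays against 7.09 ± 0.22 (SD, n = 4) in the controls. Any difference between the strains beyond Yaa would enter the comparison as well.

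Chemokine ligands are named for the spacing of their first cysteines: CC, CXC, XC and CX3C. In the spleen, homeostatic ligands such as Cxcl13 and Ccl19 are known to hold B cells in follicles through Cxcr5 and T cells in their zone through Ccr7, whereas inflammatory ligands are made on stimulation and draw in monocytes through Ccr2 and Ccr1 and neutrophils through Cxcr2. The CXC ligands Cxcl9, Cxcl10 and Cxcl11 are induced by interferon and share the receptor Cxcr3.

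The promoter sequences of 7 members follow, chosen from these data. Of them, 6 are the genes whose Yaa arrays all lay above the wild-type arrays. Cxcl1, whose groups overlapped, is the neighbour and close relative of Cxcl2. Each run is the 250 bases before the annotated start, 5′ to 3′ on the gene's strand, from RefSeq on GRCm38.p6. Capitals mark the kappaB consensus, the site bound by NF-kB, and in Cxcl10 also the core of the interferon response element.
Cxcl2, chr5:90903649-90903898, plus strand: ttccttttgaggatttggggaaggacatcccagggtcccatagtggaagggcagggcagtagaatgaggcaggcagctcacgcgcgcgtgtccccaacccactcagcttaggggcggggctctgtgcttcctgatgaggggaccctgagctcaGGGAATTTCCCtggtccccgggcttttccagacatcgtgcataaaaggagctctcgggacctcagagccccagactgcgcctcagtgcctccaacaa
Cxcl1, chr5:90890995-90891244, plus strand: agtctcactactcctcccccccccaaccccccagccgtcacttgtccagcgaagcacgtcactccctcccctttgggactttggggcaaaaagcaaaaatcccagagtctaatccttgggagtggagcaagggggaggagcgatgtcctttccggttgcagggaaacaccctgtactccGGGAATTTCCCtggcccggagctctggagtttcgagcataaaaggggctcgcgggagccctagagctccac
Cxcl10, chr5:92348890-92349139, minus strand: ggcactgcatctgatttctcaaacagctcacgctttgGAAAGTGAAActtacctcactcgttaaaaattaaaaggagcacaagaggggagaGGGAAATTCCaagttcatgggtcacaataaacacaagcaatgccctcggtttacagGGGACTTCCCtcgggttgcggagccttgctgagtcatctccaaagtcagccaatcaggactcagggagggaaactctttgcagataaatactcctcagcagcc
Ccl9, chr11:83578637-83578886, minus strand: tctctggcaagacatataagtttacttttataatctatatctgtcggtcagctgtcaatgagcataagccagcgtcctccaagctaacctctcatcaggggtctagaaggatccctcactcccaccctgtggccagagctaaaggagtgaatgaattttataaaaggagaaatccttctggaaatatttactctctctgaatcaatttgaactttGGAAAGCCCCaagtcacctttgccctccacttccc
Ccl3, chr11:83649379-83649628, minus strand: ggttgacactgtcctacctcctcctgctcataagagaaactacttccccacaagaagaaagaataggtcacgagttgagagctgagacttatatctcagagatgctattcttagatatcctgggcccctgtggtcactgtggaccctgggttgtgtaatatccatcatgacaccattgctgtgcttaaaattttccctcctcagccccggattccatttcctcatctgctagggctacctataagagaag
Ccr1, chr9:123968693-123968942, minus strand: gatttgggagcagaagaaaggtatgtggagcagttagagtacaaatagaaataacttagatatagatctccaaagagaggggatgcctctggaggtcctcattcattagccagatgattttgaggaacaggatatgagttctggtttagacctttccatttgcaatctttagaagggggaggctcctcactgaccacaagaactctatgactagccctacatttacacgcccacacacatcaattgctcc
Ccr2, chr9:124101933-124102182, plus strand: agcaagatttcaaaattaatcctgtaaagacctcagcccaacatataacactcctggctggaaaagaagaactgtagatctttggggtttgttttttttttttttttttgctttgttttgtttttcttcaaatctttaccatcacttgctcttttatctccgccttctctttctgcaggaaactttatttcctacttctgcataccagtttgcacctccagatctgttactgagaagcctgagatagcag

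Both strands were searched, and overlapping matches of the kappaB consensus were joined. It lay 97 bases before the start of Cxcl2 and 71 before that of Cxcl1, where both promoters hold the same run GGGAATTTCCC. Cxcl10 had it 159 and 103 bases before its start, with the interferon element core at 213, and Ccl9 had it at 35. No match lay in these windows of Ccl3, Ccr1 and Ccr2. Over the table, 29 members had 31 promoters, of which 6 (19.4%) held the kappaB consensus, against 3.90% of all 32851 promoters of that length; the other two were those of Ccr3 and Ccr6. The interferon core lay in 3 of the 31, those of Cxcl10, Ccl19 and Cxcl14, against 2.98% of all. A further motif, the GAS element TTCNNNGAA, lay in 3 of the 31, those of Ccl17, Ccr6 and Cxcl14, against 7.02% of all. A match is a stretch of letters and was not tested as a bound site.

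Signals are given as log2(signal + 16) after quantile normalization, and differences are Yaa minus wild type on that scale, which understates changes of dim probe sets. Of the 37 genes, 25 passed the filter on dim probe sets, 13 ligands and 12 receptors, each represented by its brightest probe set. Among these brightest probe sets, only that of Cxcr2 passed through its Yaa mean alone. No member passed limma's test: 0 of 25 had an adjusted p under 0.05, where 0.00444% of the 22518 tested probe sets passed as higher and none as lower. At an unadjusted p under 0.05, limma listed 6 members as higher and 0 as lower, against 2.97% and 1.76% of all tested probe sets. These were Ccr1, Ccr2, Cxcl2, Cxcl10, Ccl3 and Ccl9, and the same 6 had all Yaa arrays above all wild-type arrays, a pattern seen in 2.43% of all tested probe sets; no member was lower without overlap, as 1.67% of all were. The median difference was 0.43 over the tested ligands and 0.09 over the tested receptors, and -0.01 over all tested probe sets. Without Cxcr2 the receptor median was -0.0099. Means were higher in Yaa for 11 of 13 ligands and 6 of 12 receptors (5 of 11 without Cxcr2), against 47.6% of all tested probe sets, and of these ligands Ccl4, Cxcl13 and Cxcl16 turned sign with the values as deposited. With the values as deposited only Ccr1 kept its groups apart (0.426% of all probe sets), and with median-centred arrays only Ccr1 and Cxcl2 (1.09%); the 6 differences were positive in every alternative tried.

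**Figure D1:**
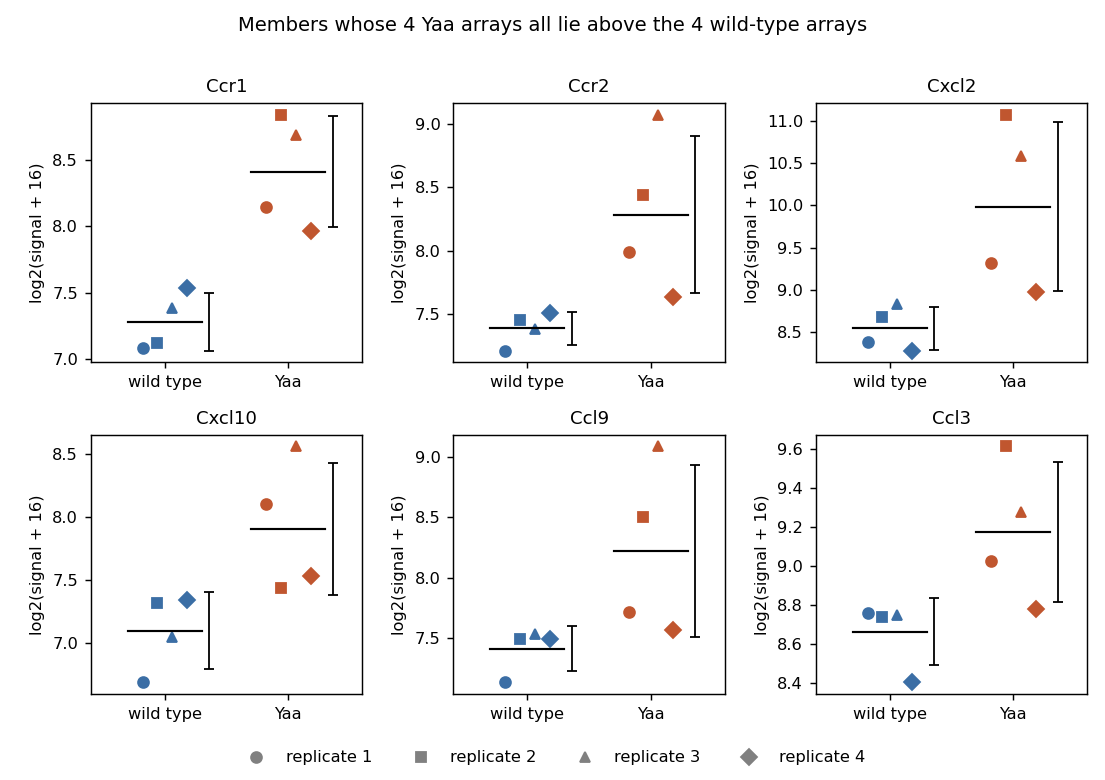
Log2(signal + 16) of the 6 members whose groups did not overlap, 1 point per array with the replicate number as its shape, the group mean as a line and the SD as a bar (n = 4). The lowest Yaa array exceeded the highest wild-type array by 0.43 for Ccr1 and by 0.02 for Ccl3.

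The arrays Yaa 2 and Yaa 3 lay at opposite ends of the first principal component (56.8% of the variance), at 68.8 and -92.4, with the others between -18.4 and 20.05. Among the markers that define spleen cells, B cell markers (9 tested genes) had a mean of 5.57 in Yaa 3 and of 10.20 to 10.94 in the other 7 arrays, and T cell markers (10 tested) 5.30 against 8.14 to 9.15. Neutrophil markers (12 tested, 12 with higher means in Yaa) lay at 8.29 to 8.98 in wild type and at 11.19, 8.63, 10.56 and 10.08 in Yaa 1 to 4. Monocyte and macrophage markers (12 tested, 11 higher) lay at 9.05 to 9.09 in wild type and at 9.52, 9.48, 10.12 and 9.14 in Yaa 1 to 4. Limma called 0 genes of these 4 lists. At an unadjusted p under 0.05 it listed 9 neutrophil and 4 monocyte markers as higher, and 0 B or T cell markers. In the neutrophil list 3 genes, and in the monocyte list 4, had groups that did not overlap. Over all tested probe sets 2.97% were listed as higher, and 2.43% were higher without overlap. The median difference was 1.53 over the neutrophil and 0.42 over the monocyte markers. Yaa 3 also had the highest means of the NK (8.84), splenic macrophage (9.91), dendritic cell (7.25), megakaryocyte (7.66) and stromal and endothelial markers (7.64), Yaa 1 that of basophil, mast cell and eosinophil markers (7.68), and wild type 1 that of erythroid markers (12.44), with Yaa 2 lowest at 10.47. Means were higher in Yaa for 5 of 5 tested basophil, mast cell and eosinophil markers (median difference 0.87), 3 of them without overlap. They were higher for 7 of 7 NK (0.49), 10 of 11 splenic macrophage (0.29), 6 of 8 dendritic cell and 3 of 5 stromal markers. They were lower for 9 of 9 B cell, 10 of 10 T cell, 6 of 6 erythroid and 5 of 5 megakaryocyte markers.

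Among the receptors, the smallest adjusted p values were those of Ccr1 and Ccr2, which are carried by myeloid cells. Ccr1, which binds Ccl3, Ccl5, Ccl6 and Ccl9 on monocytes and neutrophils, had log2 signals of 7.09, 7.12, 7.38 and 7.54 in wild type 1 to 4 and 8.15, 8.84, 8.69 and 7.97 in Yaa 1 to 4. All Yaa arrays were above all wild-type arrays, with Yaa 2 and Yaa 3 the highest. The monocyte marker mean was above the wild-type range in every Yaa array, and the neutrophil marker mean in Yaa 1, 3 and 4 and not in Yaa 2. The part of these cells was not tested. The means were 7.28 ± 0.22 (SD, n = 4) and 8.41 ± 0.42 (SD, n = 4), a difference of 1.13 ± 0.22 (SE) or 2.18-fold (limma adjusted p = 0.408), the smallest p of the members. Limma with array weights (0.22 for each of Yaa 2 and Yaa 3) found Ccr1 higher by 0.86 ± 0.16 (SE; adjusted p = 0.042), and it was the 1 member called there, where 0.453% of all probe sets were called higher. Its second tested probe set differed by 0.86 ± 0.37 (SE) with overlapping groups. That probe set had means of 5.30 in wild type and 6.16 in Yaa, and passed the filter through the Yaa mean alone. A higher Yaa mean was thus in part a condition of its being tested.

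Ccr2, the receptor for Ccl2, Ccl7 and Ccl12 by which inflammatory monocytes leave the marrow, read 7.21, 7.45, 7.38 and 7.51 in wild type 1 to 4 and 7.99, 8.44, 9.07 and 7.63 in Yaa 1 to 4. Again no Yaa array fell within the wild-type range, and Yaa 3 was the highest and Yaa 4 the lowest of the 4. The difference was 0.90 ± 0.28 (SE) or 1.86-fold (limma adjusted p = 0.88). It was 0.43 without Yaa 2 and Yaa 3 (limma adjusted p = 0.42), so it moved by over 1.5 times with those arrays. The 3 other tested probe sets of Ccr2 differed by 0.77, 0.87 and 0.21, with overlapping groups. The monocyte, NK, dendritic cell and stromal marker means had the same array highest and the same Yaa array lowest, and their part in the difference was not tested.

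Cxcr2, the receptor for Cxcl1 and Cxcl2 on neutrophils, read 5.70, 5.36, 4.39 and 4.45 in wild type 1 to 4 and 6.14, 5.85, 6.97 and 4.42 in Yaa 1 to 4. Yaa 1, 2 and 3 exceeded every wild-type array, and Yaa 4 lay within the wild-type range, where several arrays were near 4, the floor that adding 16 gives. The difference was 0.87 ± 0.53 (SE) (limma adjusted p = 0.997), 1.35 without Yaa 4 and 0.31 without Yaa 2 and Yaa 3. Cxcr2 passed the filter through its Yaa mean alone, so a higher Yaa mean was in part a condition of its being tested. The neutrophil marker mean was 10.08 in Yaa 4, above every wild-type array, and 8.63 in Yaa 2, inside the wild-type range, and its part in the Cxcr2 values was not tested.

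Ccr3, the eotaxin receptor of eosinophils, read 6.46, 6.48, 6.48 and 6.70 in wild type 1 to 4 and 6.47, 5.86, 7.61 and 6.15 in Yaa 1 to 4. Yaa 3 was the highest array and Yaa 2 the lowest, and the mean difference was -0.0099 ± 0.33 (SE). Its sign turned in several alternatives, and without Yaa 3 the difference was -0.37. Basophil, mast cell and eosinophil markers were highest in Yaa 1, where Ccr3 lay at the level of wild type. Cx3cr1, the fractalkine receptor of patrolling monocytes and some NK cells, read 6.50, 6.26, 6.11 and 6.54 in wild type 1 to 4 and 6.52, 7.10, 6.72 and 5.84 in Yaa 1 to 4, a difference of 0.19 ± 0.26 (SE) with overlapping groups, which was 0.0092 without Yaa 2 and 0.43 without Yaa 4. Its second, dim probe set gave 0.53. Ccr1, Ccr3 and Ccr2 lie in that order on chromosome 9 of GRCm38.p6, so the receptor between the pair that kept groups apart did not share their pattern; the difference between them was not tested.

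Ligands for neutrophils were led by Cxcl2, an early product of activated macrophages and neutrophils. Its log2 signals were 8.39, 8.68, 8.84 and 8.28 in wild type 1 to 4 and 9.31, 11.07, 10.58 and 8.98 in Yaa 1 to 4. The Yaa arrays were all higher, Yaa 2 and Yaa 3 by far, and the within-group SD was 0.255 in wild type and 0.997 in Yaa. The difference was 1.44 ± 0.43 (SE) or 2.71-fold (limma adjusted p = 0.841), the largest of the tested members, and 0.60 without Yaa 2 and Yaa 3 (limma adjusted p = 0.27).

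Cxcl1, which carries the same kappaB run in its promoter and signals through the same receptor, read 7.23, 6.90, 6.51 and 6.76 in wild type 1 to 4 and 7.53, 6.41, 8.12 and 7.06 in Yaa 1 to 4. In this brightest probe set Yaa 2, the highest array for Cxcl2, was the lowest of all 8, and Yaa 3 was the highest. The difference was 0.43 ± 0.34 (SE) (limma adjusted p = 0.997), 0.15 without Yaa 3 and 0.72 without Yaa 2. Its other tested probe sets differed by 0.53 and 0.76 ± 0.32 (SE), so all 3 mean differences were positive. Yaa 2 was not the lowest array in these others. It read 6.99 in the first, within the wild-type range of 6.02 to 7.03. In the second it read 5.94, above the wild-type range of 5.32 to 5.62.

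Inflammatory CC ligands had higher means in 5 of 5 tested genes, with a median difference of 0.49, though Ccl4 turned sign with the values as deposited. Ccl3, a ligand of Ccr1 made by macrophages and activated lymphocytes, read 8.76, 8.74, 8.75 and 8.41 in wild type 1 to 4 and 9.03, 9.61, 9.28 and 8.78 in Yaa 1 to 4. Wild type 1 to 3 lay close together with wild type 4 lower, and Yaa 4 exceeded the highest of them by only 0.02. The difference was 0.51 ± 0.19 (SE) or 1.42-fold (limma adjusted p = 0.997). It was 0.29 with the values as deposited, where the median of all tested probe sets lay at -0.20, and 0.24 without Yaa 2 and Yaa 3.

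Ccl9, another ligand of Ccr1, read 7.13, 7.49, 7.53 and 7.48 in wild type 1 to 4 and 7.71, 8.51, 9.09 and 7.56 in Yaa 1 to 4. Its Yaa arrays were all higher, Yaa 4 by 0.03 over the highest wild-type array, and Yaa 3 was the highest. The difference was 0.81 ± 0.32 (SE) or 1.75-fold (limma adjusted p = 0.997), 0.52 without Yaa 3 and 0.23 without Yaa 2 and Yaa 3. The second probe set gave 0.80 ± 0.32 (SE) with groups that overlapped through Yaa 4.

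Ccl6, which follows Ccl9 among the members on chromosome 11 and is likewise a ligand of Ccr1, read 8.33, 8.30, 8.52 and 8.21 in wild type 1 to 4 and 8.11, 9.39, 9.62 and 8.19 in Yaa 1 to 4. Only Yaa 2 and Yaa 3 were above wild type, and Yaa 1 and Yaa 4 lay below every wild-type array. The difference was 0.49 ± 0.34 (SE) (limma adjusted p = 0.997), and it turned to -0.19 without those arrays, where 9.32% of all probe sets were likewise lower without overlap. Its second tested probe set gave 0.15 ± 0.34 (SE), also with overlapping groups. Ccl9 and Ccl6 shared their high arrays. In Yaa 1, Ccl9 lay above the wild-type range and Ccl6 below it. In Yaa 4 both lay close to the edge of that range, Ccl9 at 7.56 against 7.53 and Ccl6 at 8.19 against 8.21.

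Ccl5, made by T and NK cells, read 9.35, 9.58, 10.03 and 9.87 in wild type 1 to 4 and 9.84, 10.21, 10.91 and 9.65 in Yaa 1 to 4, highest in Yaa 3, where NK markers were highest too and T cell markers lowest. The difference was 0.44 ± 0.27 (SE), and 0.19 without Yaa 3. Ccl4, which lies beside Ccl3, read 7.66, 7.96, 7.89 and 8.05 in wild type 1 to 4 and 7.87, 8.30, 8.30 and 7.64 in Yaa 1 to 4, a difference of 0.14 ± 0.18 (SE) whose sign turned with the values as deposited. For both genes the groups overlapped, and without Yaa 2 and Yaa 3 the differences were 0.037 for Ccl5 and -0.13 for Ccl4.

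**Figure D2:**
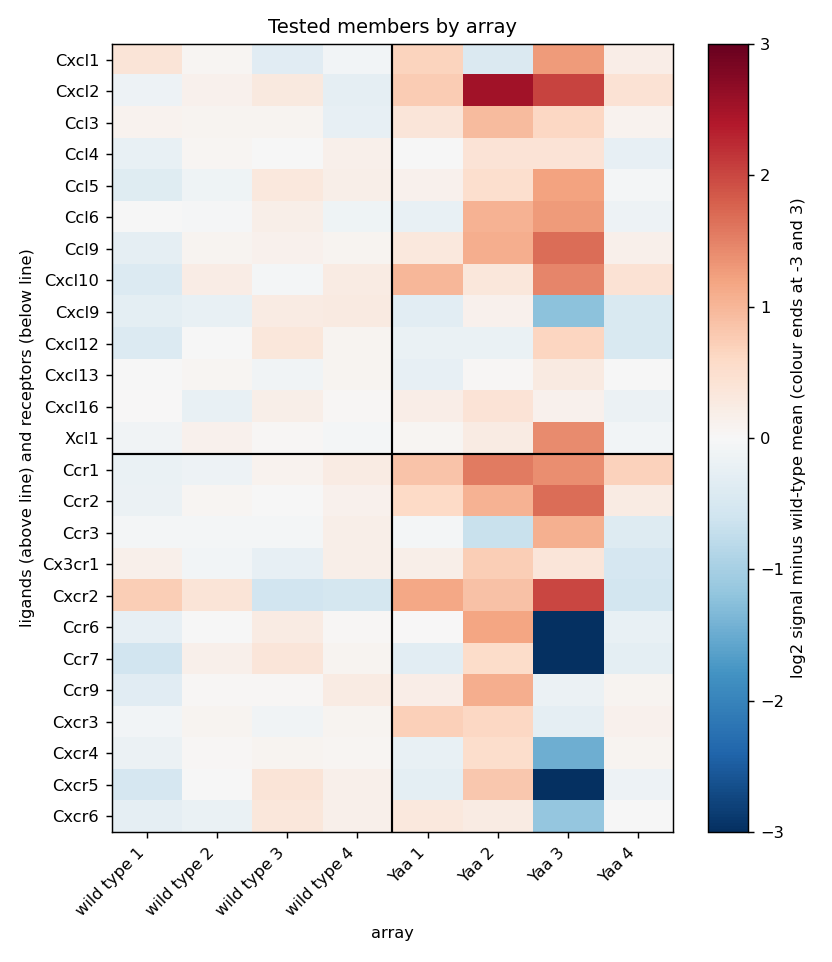
Log2 signal of each tested member minus its wild-type mean, by array, with ligands above the line and receptors below it; red is higher and blue lower. Yaa 2 and Yaa 3 were high for Cxcl2, Ccl6 and Ccl9, and Yaa 3 was low for Ccr6, Ccr7 and Cxcr5.

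Of the interferon-inducible ligands, Cxcl10 had a higher and Cxcl9 a lower mean in Yaa. Cxcl10 read 6.69, 7.32, 7.04 and 7.34 in wild type 1 to 4 and 8.10, 7.43, 8.56 and 7.53 in Yaa 1 to 4. All Yaa arrays were higher, with Yaa 3 and Yaa 1 the highest and Yaa 2 the lowest Yaa array, unlike Cxcl2. The difference was 0.81 ± 0.27 (SE) or 1.75-fold (limma adjusted p = 0.96), and it was 0.72 without Yaa 2 and Yaa 3 together and 0.59 to 0.97 without any single Yaa array.

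Cxcl9, which binds the same receptor, read 6.12, 6.19, 6.67 and 6.67 in wild type 1 to 4 and 6.09, 6.54, 5.18 and 5.95 in Yaa 1 to 4, with Yaa 3 the lowest array. Its difference was -0.48 ± 0.29 (SE) (limma adjusted p = 0.997), and without Yaa 2 every remaining Yaa array lay below wild type with a difference of -0.68, a pattern that 5.14% of all probe sets had without that array. The second, dim probe set of Cxcl9 gave -0.16 with overlapping groups, and wild type 1 was its lowest array. Cxcl11 had both probe sets under the filter, with differences of -0.03 and 0.02. Their receptor Cxcr3, of activated T cells and NK cells, read 7.02, 7.17, 6.995 and 7.18 in wild type 1 to 4 and 7.80, 7.72, 6.81 and 7.22 in Yaa 1 to 4. Yaa 1, 2 and 4 were above wild type and Yaa 3 below it. The difference was 0.30 ± 0.22 (SE) with all arrays and 0.49 without Yaa 3 (limma adjusted p = 0.60), where the groups no longer overlapped, as for 4.77% of all probe sets.

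Receptors of lymphocytes varied mainly through Yaa 3 and Yaa 2. Yaa 3 was the lowest array for 6 of 7, and Yaa 2 the highest for 5 of 7. Over all tested probe sets, Yaa 3 was the lowest array for 26.3% and Yaa 2 the highest for 30.5%. Their mean log2 signal was 8.93 to 9.43 in wild type and 9.30, 9.96, 6.86 and 9.19 in Yaa 1 to 4.

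Cxcr5, the receptor for Cxcl13 that places B cells in follicles, read 9.54, 10.03, 10.43 and 10.20 in wild type 1 to 4 and 9.76, 10.87, 4.80 and 9.90 in Yaa 1 to 4. Yaa 3 was 4.74 below the next array and near the floor, while Yaa 2 was above every wild-type array. The difference was -1.22 ± 1.13 (SE) with all arrays and 0.13 without Yaa 3. Ccr7, the receptor that guides T cells and dendritic cells to the T zone, read 11.52, 12.25, 12.46 and 12.19 in wild type 1 to 4 and 11.78, 12.66, 7.64 and 11.81 in Yaa 1 to 4, with Yaa 3 lower than the next array by 3.88. Its difference was -1.14 ± 0.94 (SE), and -0.025 without Yaa 3. Ccr6, found on B cells and some T cells, read 9.39, 9.61, 9.88 and 9.66 in wild type 1 to 4 and 9.65, 10.81, 5.78 and 9.42 in Yaa 1 to 4, and its difference of -0.72 ± 0.90 (SE) turned to 0.32 without Yaa 3. For these 3 genes the low value of Yaa 3 moved with the B and T cell marker means, and the part of those cells was not tested.

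Cxcr4, the receptor for Cxcl12 on nearly all white cells, read 11.48, 11.68, 11.73 and 11.71 in wild type 1 to 4 and 11.43, 12.18, 10.17 and 11.74 in Yaa 1 to 4. Yaa 3 was again the lowest, by 1.26, a smaller gap than for Cxcr5 and Ccr7. The difference was -0.27 ± 0.36 (SE), and 0.14 without Yaa 3. Cxcr6, the receptor for Cxcl16 on activated T and NK T cells, read 6.16, 6.22, 6.76 and 6.58 in wild type 1 to 4 and 6.75, 6.68, 5.28 and 6.42 in Yaa 1 to 4, a difference of -0.15 ± 0.32 (SE) that turned to 0.19 without Yaa 3. Ccr9, the gut-homing receptor for Ccl25, read 7.38, 7.76, 7.77 and 7.98 in wild type 1 to 4 and 7.92, 8.81, 7.56 and 7.80 in Yaa 1 to 4, with Yaa 2 highest and Yaa 3 within the range of wild type, the 1 lymphoid receptor whose brightest probe set was not lowest there; in another tested Ccr9 probe set Yaa 3 was the lowest array, at 6.04. Its difference was 0.30 ± 0.27 (SE), and 0.035 without Yaa 2.

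**Figure D3:**
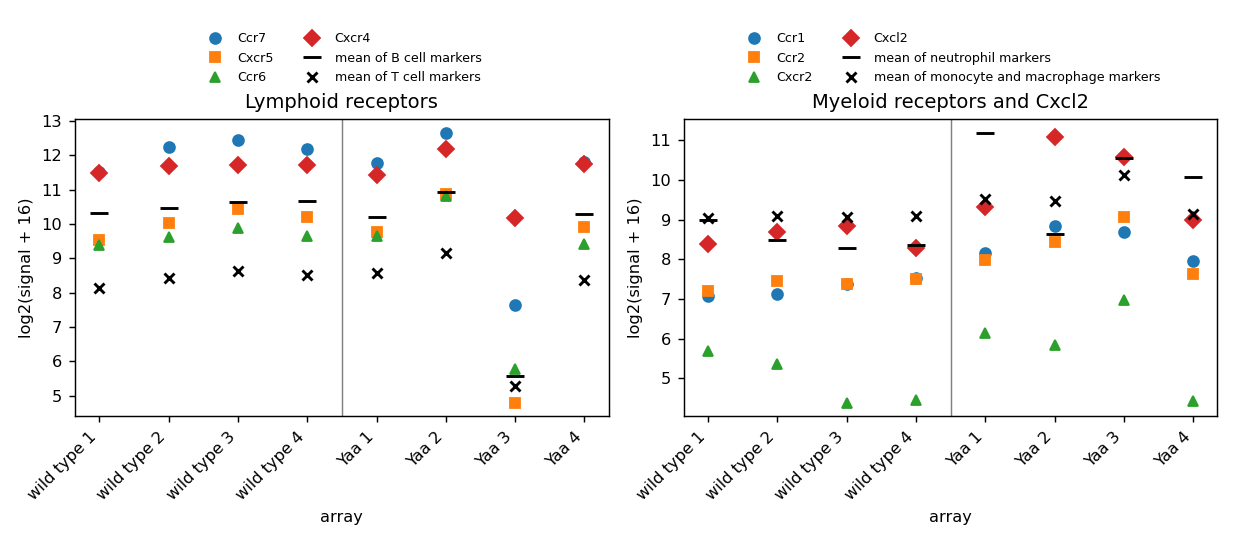
Log2(signal + 16) of 4 lymphoid receptors (left) and of 3 myeloid receptors with Cxcl2 (right) in each array, with black marks for the mean of the tested marker genes of B and T cells or of neutrophils and monocytes. In Yaa 3, Cxcr5 stood at 4.80 with B cell markers at 5.57; in Yaa 2, Ccr1 stood at 8.84 with neutrophil markers at 8.63 and monocyte markers at 9.48.

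Homeostatic ligands were mostly dim, and 5 of the 7 listed had no tested probe set or no probe set at all. Cxcl13, the follicular ligand of Cxcr5, read 6.001, 6.07, 5.92 and 6.10 in wild type 1 to 4 and 5.76, 6.05, 6.29 and 6.02 in Yaa 1 to 4. Its difference was 0.010 ± 0.15 (SE), with a sign that turned with the values as deposited, and Yaa 3, where Cxcr5 was near the floor, had the highest Cxcl13 value. Its second probe set gave 0.30 ± 0.36 (SE). Cxcl12, the stromal ligand of Cxcr4, read 5.14, 5.54, 5.90 and 5.63 in wild type 1 to 4 and 5.35, 5.35, 6.21 and 5.10 in Yaa 1 to 4, again highest in Yaa 3, with a difference of -0.052 ± 0.27 (SE). Its 2 dim probe sets gave 0.45 and -0.48. Stromal and endothelial markers, of which 5 of 10 were tested, were also highest in Yaa 3, and their part in these values was not tested.

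Of the remaining ligands, Xcl1, made by NK and CD8 T cells, read 6.73, 6.96, 6.88 and 6.78 in wild type 1 to 4 and 6.90, 7.08, 8.26 and 6.75 in Yaa 1 to 4. Yaa 3 stood well above the other 7 arrays, and the difference of 0.41 ± 0.30 (SE) was 0.075 without it. Cxcl16, a membrane-bound ligand that also takes up oxidized lipid, read 6.50, 6.27, 6.66 and 6.53 in wild type 1 to 4 and 6.69, 6.89, 6.62 and 6.31 in Yaa 1 to 4, a difference of 0.14 ± 0.16 (SE) that turned sign with the values as deposited.

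**Figure D4:**
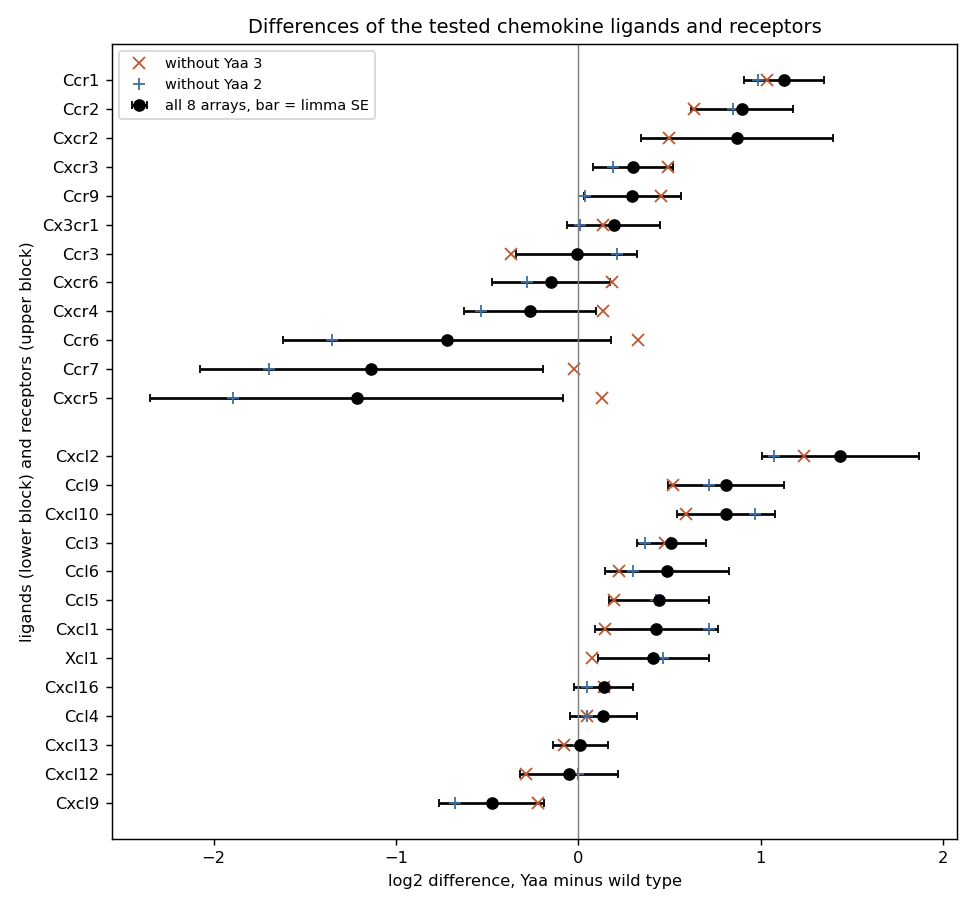
Log2 difference, Yaa minus wild type, of the 13 tested ligands (lower block) and 12 tested receptors (upper block), with the limma SE as a bar; crosses and plus signs are the differences without Yaa 3 and without Yaa 2. Ccr7, Cxcr5 and Ccr6 have the widest errors (SE 0.94, 1.13 and 0.90), and their differences move toward or past 0 without Yaa 3.

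The 12 members below the filter had no test, and none kept its groups apart. They include every ligand of Ccr2 in the list: Ccl2 ran from 4.50 to 5.58 in wild type and from 4.85 to 5.50 in Yaa, Ccl7 from 4.16 to 5.04 and from 4.71 to 5.50, Ccl12 from 4.12 to 4.28 and from 4.04 to 4.37. Ccl8, of the same group, ran from 4.89 to 5.30 and from 4.75 to 5.65. The others were Ccl17, Ccl22, Ccl24, Ccl25, Cxcl11, Cxcl14 and Cx3cl1, and the receptor Xcr1 of cross-presenting dendritic cells, which ran from 4.11 to 5.57 in wild type and from 4.60 to 5.90 in Yaa.

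Several probe sets measured 16 of the 37 genes, and for 5 of these they differed in sign, in each case with at least 1 probe set under the filter. Ccl25 gave 0.13 and -0.32, Cx3cl1 0.51, -0.04, -0.10 and -0.13, and Ccr9 0.30, 0.10 and 0.37 from tested probe sets against 0.03 and -0.12 from dim ones; Cxcl11 and Cxcl12 are given above. Among the 8 genes with several tested probe sets, 0 differed in sign.

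Among the 8 arrays, Yaa 3 held the highest value of 8 of 13 ligands and Yaa 2 of 4, and no wild-type array but wild type 4 was the highest for any. Yaa 3 was the highest array for 30.8% of all tested probe sets and Yaa 2 for 30.5%. For receptors, Yaa 2 was highest in 7 of 12 and Yaa 3 in 3, and Yaa 3 was lowest in 6. With Yaa 2 and Yaa 3 left out, Yaa 1 was the highest of 6 arrays for 6 of 13 ligands and Yaa 4 for 0, against 14.9% and 17.5% of all tested probe sets. Wild type 2, 3 and 4 were then the highest for 1, 3 and 3 ligands, against 11.2%, 18.1% and 13.8% of all. For receptors, Yaa 1 was then highest in 4 of 12, Yaa 4 in 1, wild type 3 in 4 and wild type 4 in 3.

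Downstream, chemokine receptors act through Gi proteins, PI3K gamma, the Rac activator Dock2 and integrins, and are shut off by RGS proteins, receptor kinases and arrestins. Of 40 listed genes of this machinery 38 were tested, with 19 higher and 19 lower means and a median difference of 0.02, and limma called 0. At an unadjusted p under 0.05 it listed 1, Rgs16, a brake on Gi signalling, at 0.55 ± 0.22 (SE), lowest p of the list; over all tested probe sets 2.97% passed that threshold as higher and 1.76% as lower, so 1 of 38 is not above the background. The next by p were Pik3r5, a subunit of PI3K gamma, at 0.43 ± 0.22 (SE), Arrb2, an arrestin, at 0.37 ± 0.19 (SE), and Stk10, a lymphocyte kinase, at -0.61 ± 0.32 (SE), which was lowest in Yaa 3 at 8.63. Of the listed atypical receptors, which act without Gi signalling, 4 of 5 were tested. Ccrl2 had 0.57 ± 0.21 (SE, limma adjusted p = 0.996), with groups that overlapped between Yaa 4 at 9.39 and wild type 3 at 9.40. Ackr3 had -0.16 ± 0.14 (SE), Ackr2 -0.12 ± 0.36 (SE) and Ackr1 0.02 ± 0.41 (SE).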

How the data were processed

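Total RNA of spleen cells was hybridised to Affymetrix mouse arrays, 1 per sample. The deposited table holds 1 intensity per probe set and array, the MAS5 signal, per the submitters' processing notes; the scaling target is not given in the sources used here. Trimmed means (2% off each end) ran from 106.2 to 192.1 and were not within 10% of their median, so the 8 arrays were quantile normalized and taken as log2(signal + 16). The 64 controls and probe sets at or below the median (5.38) were left out, which left 22518 of 45101. Yaa was compared with wild type by limma 3.58.1 (R 4.3.3; lmFit, eBayes with trend), with Benjamini-Hochberg adjustment and a threshold of 0.05. Probe sets were named from the platform annotation, updated by Entrez ID to GRCm38.p6 (34754 of 35890 matched). The limma fit was tested on simulated data, with known changes added to independent noise. That simulation did not cover the normalization, the filter or the naming of probe sets. Figures used matplotlib 3.10.9.

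Members, gene lists and the naming rule (the 8 ligands and 6 receptors with the smallest p, genes whose groups do not overlap, genes whose probe sets disagree in sign, and the 4 smallest p of the 2 pathway lists, in full) were chosen with earlier results of these data known; the remaining tested members are given as well. The 11 marker lists (neutrophil, monocyte and macrophage, splenic macrophage, dendritic, B, T, NK, basophil with mast cell and eosinophil, erythroid, megakaryocyte, stromal) were read per array. Leaving out arrays kept the normalized values and the tested probe sets. No 2 arrays held identical values. The number of arrays limits the precision.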

Additional observations from a re-analysis of the deposited data

Results flagged for a closer look

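In 3 of 50 groups of 4 arrays (25 tested members in 2 strains), the outermost array lay apart from the others by more than Dixon's 95% critical value, and chance flags about 1 in 20 groups, here 2.5. Ccl3 stood at 8.41 in wild type 4 and at 8.74 to 8.76 in the other wild-type arrays. Ccl9 stood at 7.13 in wild type 1 and at 7.48 to 7.53 in the others. Ccr3 stood at 6.70 in wild type 4 and at 6.46 to 6.48 in the others. The rule sets the gap against the full range of a group, which Yaa 2 widened for the lymphoid receptors Cxcr5 and Ccr7. It did not flag Yaa 3 for Cxcr5 (4.80, other Yaa arrays 9.76 to 10.87) or for Ccr7 (7.64, others 11.78 to 12.66).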

How the results depend on the processing

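Over all probe sets limma called 1 higher and 0 lower; it called 102 and 41 with array weights, 74 and 29 without Yaa 2 and Yaa 3, 0 higher with log2(signal + 1), in the brightest 25% of probe sets or with the replicate block, and 1 to 28 higher and 0 to 3 lower with single arrays left out. Members past the threshold were 0 in every alternative except array weights (1, Ccr1). Members higher in every Yaa array were 6; they were 1 with the values as deposited, 2 with median-centred arrays, 6 to 7 with single arrays left out (Cxcr3 joins without Yaa 3, Cxcr2 without Yaa 4), where 4.85%, 4.77% and 4.77% of all probe sets were so without Yaa 2, 3 and 4, and 7 without Yaa 2 and Yaa 3 (with Cxcr3; 8.3% of all). Members lower in every Yaa array were 0 to 1 with single arrays left out (Cxcl9 without Yaa 2; 5.14% of all) and 2 without Yaa 2 and Yaa 3 (Ccl6 and Cxcl9; 9.32% of all).

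Of 444 comparisons of a member with an alternative, 416 kept direction and side of the threshold, and 13 of 25 members never turned sign. With the values as deposited the sign turned for Cxcl13 (-0.15), Ccl4 (-0.085) and Cxcl16 (-0.039), with median-centred arrays for Cxcl13 (-0.059), and with log2(signal + 64) for Ccr3 (0.025). With array weights it turned for Cxcl13 (-0.15), Ccl4 (-0.087), Ccl6 (-0.024) and Cxcr6 (0.12), and without Yaa 2 and Yaa 3 for Cxcl13 (-0.13), Ccl4 (-0.13), Ccl6 (-0.19), Xcl1 (-0.011), Cxcr6 (0.15) and Cx3cr1 (-0.17). With single arrays left out the range was -0.29 to 0.081 for Cxcl12, -0.077 to 0.10 for Cxcl13, -1.35 to 0.32 for Ccr6, -0.53 to 0.14 for Cxcr4, -1.89 to 0.13 for Cxcr5, -0.31 to 0.19 for Cxcr6 and -0.37 to 0.21 for Ccr3. The cause was not tested.

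The sample titles link same-numbered samples only by the number. Correlations of their deviations ran from -0.37 to 0.016, and with so few arrays they do not decide whether such samples were processed together. With the replicate block limma listed 731 probe sets at an unadjusted p under 0.05, against 1066 without it, and 6 members in each.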
